A study of Mus musculus with 96 samples.

Results

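Transcripts of 8 cell adhesion genes were followed along the mouse nephron: the cadherins Cdh1, Cdh2, Cdh3, Cdh4, Cdh6, Cdh11 and Cdh16, and the epithelial cell adhesion molecule Epcam. They were taken by gene symbol from a deposited table of 54532 genes, as ENSMUSG00000000303, ENSMUSG00000024304, ENSMUSG00000061048, ENSMUSG00000000305, ENSMUSG00000039385, ENSMUSG00000031673, ENSMUSG00000031881 and ENSMUSG00000045394 in that order, and all 8 passed the filter used for the tests, a level of at least 1 TPM in at least 3 mice. TPM are relative transcript numbers, scaled for transcript length and to 1 common total per sample, so that levels can be compared between genes of a sample. Between segments a level is a share of that total, so a difference also depends on the other transcripts in each segment. The levels and overlaps below are in TPM as deposited, and tests were repeated after rescaling. The table holds ultra-low input RNA-seq of 93 pieces of kidney, dissected by hand from male C57BL/6 mice of 6 to 8 weeks with free access to chow and water. The labels name no genetic change and no treatment, so the 15 groups differ in the structure dissected.

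The groups are the glomerulus (3 mice) and 14 tubule segments. The proximal tubule was sampled as its initial convoluted part (PTS1, 3 mice), its straight part in the medullary rays of the cortex (PTS2, 5 mice) and its last part in the outer stripe (PTS3, 3 mice). For Henle's loop there were 3 descending thin limb groups of 3 mice each, DTL1 from short loops and DTL2 and DTL3 from the outer and inner medullary parts of long loops, and the thin ascending limb (ATL, 4 mice). The distal groups were the medullary and cortical thick ascending limb (MTAL, 3 mice, and CTAL, 5 mice), the distal convoluted tubule (DCT, 3 mice), the connecting tubule (CNT, 3 mice) and the cortical, outer medullary and inner medullary collecting duct (CCD, 5 mice, OMCD, 4 mice, and IMCD, 3 mice). Up to 3 pieces of 1 mouse number and segment were averaged first, which left 53 combinations of mouse and segment. In the following n counts the mice of a segment, and the labels do not say whether 1 number in different segments is 1 animal.

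Classical cadherins such as Cdh1, Cdh2, Cdh3 and Cdh4 join neighbouring cells by binding the same kind of cadherin on the next cell, and their tails hold the actin cytoskeleton through catenins. Cdh6 and Cdh11 belong to the type II cadherins, while Cdh16, the kidney-specific or Ksp-cadherin, has a short tail that lacks the catenin-binding region. Epcam is not a cadherin. It is a single-pass membrane protein of epithelia that binds claudin-7 and tetraspanins, and in the rodent kidney the proximal tubule is known for N-cadherin (Cdh2) and the distal tubule for E-cadherin (Cdh1).

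The labels of the segments were checked against transcripts that define them. Each marker had its highest or second highest mean of the 15 groups in its own segment, except Aqp2, the vasopressin-regulated water channel, which ranked 3 in CCD behind OMCD and IMCD. Some libraries stood apart. Of 1457 odorant and vomeronasal receptor genes, which no kidney segment is known for, 636 to 746 reached 1 TPM in DTL1, 316 to 730 in the glomerulus, 405 to 449 in DTL3 and 221 to 306 in DTL2, against 0 to 19 in the proximal segments 0 to 4 from MTAL to CCD, 59 to 195 in OMCD and 3 to 17 in IMCD. In ATL the number was 23 and 15 in mice 2 and 3 but 517 and 588 in mice 4 and 6. Tests were repeated without the glomerulus and DTL1 and with either pair of ATL mice alone, and changed calls are given beside the results. DTL2 and DTL3 were left out of no test. In pieces of tissue, fewer cells of a type and less RNA per cell cannot be told apart.

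**Figure D1:**
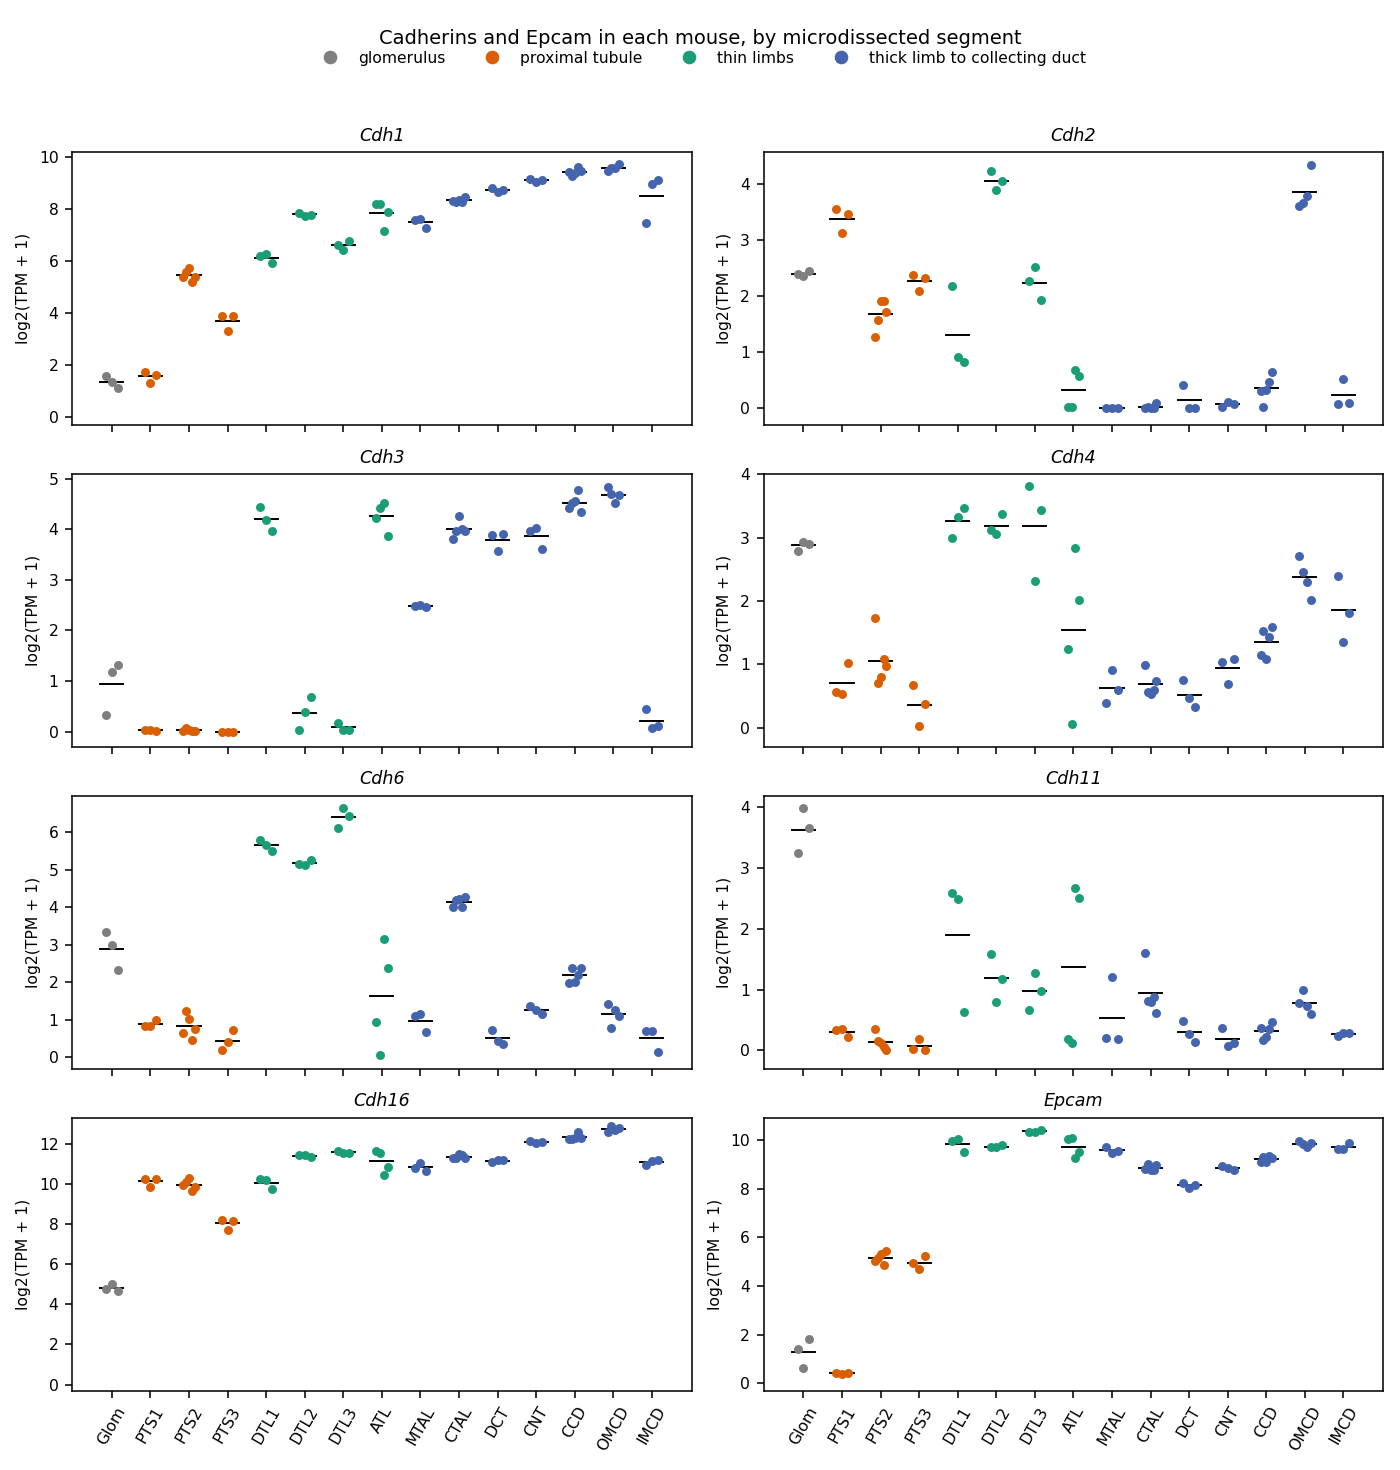
Level of each gene in each mouse as log2(TPM + 1), by segment from glomerulus (Glom) to IMCD. Each point is 1 mouse, each black bar a group mean, and colours give the region. Cdh16 is high in every tubule segment, and Cdh1 and Epcam in those after the proximal tubule, while Cdh2, Cdh3 and Cdh6 are each high in separate stretches of it.

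Cdh1, E-cadherin, had mean levels that ran from 1.57 ± 0.425 TPM (SD, n = 3) in the glomerulus to 767 ± 65.7 TPM (SD, n = 4) in OMCD, 489.8-fold higher. In PTS1 the 3 mice had 2.34, 1.51 and 2.10 TPM, and in PTS2 the 5 mice had 41.3, 46.6, 52.5, 35.6 and 41.0 TPM. PTS3 was lower again, at 13.8, 8.91 and 13.7 TPM. The 3 proximal segments did not overlap with each other in any mouse.

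In the thin limbs the mice of DTL1 had 71.1, 76.6 and 59.5 TPM of Cdh1, those of DTL2 had 229, 213 and 218 TPM, and those of DTL3 had 96.7, 84.6 and 108 TPM. Cdh1 was thus higher in the outer medullary part of the long descending limb than in the parts on either side, with no overlap of mice. From MTAL on the means rose without a break from 180 ± 22.4 TPM (SD, n = 3) to 320 ± 18.6 in CTAL (SD, n = 5), 422 ± 17.8 in DCT (SD, n = 3), 549 ± 20.6 in CNT (SD, n = 3) and 688 ± 61.9 in CCD (SD, n = 5). None of these 5 groups overlapped with the next, whereas CCD and OMCD, which had the highest means, did. IMCD mice had 173, 490.3 and 558 TPM. The low mouse was low in each of its 3 pieces, with 238, 153 and 128 TPM, while its Cdh16 and Epcam levels lay close to those of the other IMCD mice.

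Cdh2, N-cadherin, is the main classical cadherin known from rodent proximal tubule, and here its highest means lay in 3 separate places. PTS1 mice had 10.7, 7.68 and 10.0 TPM. PTS2 mice, at 1.42, 1.98, 2.76, 2.75 and 2.29 TPM, lay below every PTS1 mouse, and PTS3 mice had 4.17, 3.29 and 4.04 TPM. The highest mean was in DTL2, where the mice had 17.7, 13.9 and 15.6 TPM, and the second highest in OMCD, where they had 11.3, 11.6, 12.9 and 19.4 TPM. These groups overlapped with each other and lay above PTS1. On either side of OMCD the gene was near the bottom of the scale: CCD mice had 0.24, 0.02, 0.25, 0.39 and 0.57 TPM, and IMCD mice had 0.0533, 0.433 and 0.0667 TPM. In MTAL 1 mouse had 0.005 TPM and the others were listed at 0.

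The OMCD level of Cdh2 was read beside defining transcripts of the other segments that have it. In the 4 OMCD mice Aqp1, a water channel with its highest means in DTL3 and DTL2, was at 0.11 to 11.1 TPM, against 6095 to 7022 TPM in DTL2. Slc34a1, the sodium phosphate cotransporter of the proximal tubule, was at 0.17 to 0.69 TPM in OMCD, against 9164 to 9764 TPM in PTS1. The OMCD mice also had 59 to 195 receptor genes at 1 TPM or more. The part of that background, or of other segments' material, in the OMCD level of Cdh2 was not tested.

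On the log2(TPM + 1) scale Cdh1 exceeded Cdh2 in every mouse of every segment except PTS1 and the glomerulus. The difference in level, Cdh1 minus Cdh2, was -1.81 ± 0.02 in PTS1 (SD, n = 3) and -1.05 ± 0.27 in the glomerulus (SD, n = 3). It was 3.78 ± 0.33 in PTS2 (SD, n = 5) and 1.42 ± 0.19 in PTS3 (SD, n = 3), so the balance changed sign between the first and the second proximal group. It reached 9.07 ± 0.18 in CCD (SD, n = 5), fell back to 5.73 ± 0.24 in OMCD (SD, n = 4) and was 8.27 ± 0.84 in IMCD (SD, n = 3).

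**Figure D2:**
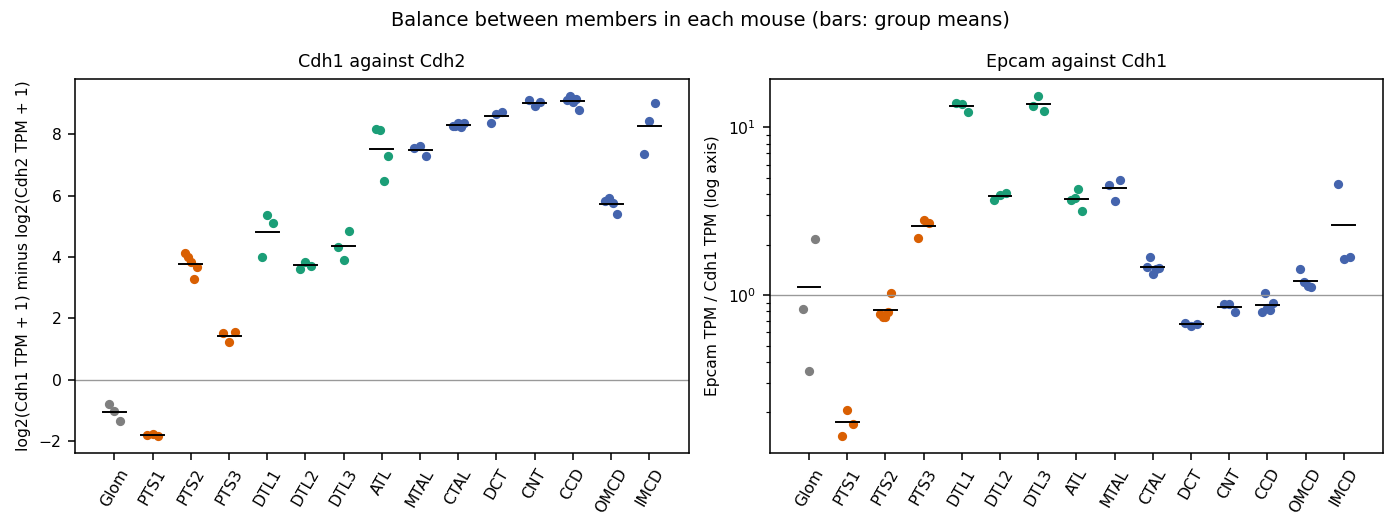
Left, log2(Cdh1 TPM + 1) minus log2(Cdh2 TPM + 1) in each mouse; right, Epcam TPM divided by Cdh1 TPM in each mouse on a log axis. Points are mice, bars group means and grey lines mark equal levels. The Cdh1 to Cdh2 difference is below 0 in PTS1 and the glomerulus alone and dips in OMCD; the Epcam to Cdh1 ratio is highest in DTL1 and DTL3.

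Cdh3, P-cadherin, the classical cadherin of placenta and basal epithelia, was near 0 in some stretches of the tubule and over 10 TPM in others. It was at 0.01 to 0.05 TPM in PTS1 and PTS2 and listed at 0 in the 3 PTS3 mice. In DTL1 the mice had 20.7, 17.1 and 14.6 TPM, but in DTL2 they had 0.03, 0.31 and 0.617 TPM and in DTL3 0.13, 0.03 and 0.03 TPM. It was high again in ATL at 17.6, 20.3, 22.0 and 13.7 TPM. The short and the long descending limb thus did not overlap for Cdh3, nor did the descending and ascending thin limbs of the inner medulla.

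MTAL mice had 4.57, 4.70 and 4.52 TPM of Cdh3, below every CTAL mouse (13.02 to 18.3 TPM). DCT and CNT resembled CTAL, with means of 12.9 ± 1.73 and 13.7 ± 2.21 TPM (SD, n = 3 each). OMCD mice had 27.7, 24.8, 21.9 and 24.4 TPM and overlapped with CCD mice, at 20.3, 22.0, 22.5, 26.5 and 19.1 TPM. IMCD mice, at 0.367, 0.05 and 0.0867 TPM, lay far below them. The groups from OMCD to DCT in the order of means each overlapped with the next, and MTAL was the first to stand apart. Cdh3 and Cdh1 are neighbouring protein-coding genes on mouse chromosome 8 in the RefSeq annotation of GRCm38.p6. Their levels differed in order all the same: DTL2 had 220 ± 8.24 TPM of Cdh1 (SD, n = 3) beside a Cdh3 mean of 0.319 TPM, and over the 15 group means their Pearson correlation was 0.62.

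Cdh6, K-cadherin, a type II cadherin known from the forming nephron, was a descending limb transcript in these data. DTL1 mice had 54.1, 49.3 and 44.4 TPM, DTL2 mice 34.2, 33.7 and 37.0 TPM, and DTL3 mice 68.6, 97.9 and 85.3 TPM. These 3 groups did not overlap with each other or with any other group. A separate and lower stretch was CTAL, at 15.2, 17.1, 17.7, 14.95 and 18.3 TPM, between MTAL at 1.15, 1.23 and 0.585 TPM and DCT at 0.65, 0.35 and 0.29 TPM. No CTAL mouse overlapped with either neighbour. Aqp1 was at 0.245 to 2.14 TPM in the CTAL mice, against 6095 to 7022 TPM in DTL2, and the part of other segments' material in the CTAL level was not tested.

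Proximal mice had 0.14 to 1.36 TPM of Cdh6, close to the 1 TPM line. In ATL mice 2 and 3 it was 0.91 and 0.04 TPM, and it was higher in both libraries with many receptor genes, at 7.84 and 4.17 TPM in mice 4 and 6. The glomerulus had 9.05, 6.95 and 4.05 TPM and CCD 2.92, 4.25, 2.99, 3.55 and 4.18 TPM.

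Cdh4, R-cadherin, was a low transcript, with no group mean at 10 TPM. Its highest means were those of DTL3, DTL1 and DTL2, at 8.95 ± 4.58, 8.67 ± 1.58 and 8.14 ± 1.10 TPM (SD, n = 3 each), which overlapped. The glomerulus followed with 5.95, 6.65 and 6.45 TPM, and OMCD with 5.56, 4.48, 3.94 and 3.04 TPM. ATL mice 2 and 3 had 1.37 and 0.04 TPM, and mice 4 and 6 had 6.11 and 3.05 TPM. Elsewhere single mice lay between 0.02 and 4.27 TPM. The 5 groups with the highest Cdh4 means, DTL3, DTL1, DTL2, the glomerulus and OMCD, are those in which every mouse had 59 or more receptor genes at 1 TPM, and the part of those libraries' background in the Cdh4 levels was not tested.

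Cdh11, the OB-cadherin of mesenchymal cells, had its highest mean in the glomerulus, where the mice had 8.45, 14.8 and 11.7 TPM. In DTL1 they had 5.04, 4.61 and 0.55 TPM. ATL mice 4 and 6 had 5.33 and 4.65 TPM, and mice 2 and 3 had 0.14 and 0.09 TPM. The other groups held at most 2.04 TPM in any mouse. Among 8 stromal and mesangial markers, all 8 averaged at least 1 TPM in the glomerulus, in DTL1 and in OMCD, with summed levels of 945 to 1296, 62.8 to 102 and 12.9 to 22.4 TPM. Cdh11 in OMCD was 0.515 to 0.99 TPM. In ATL mice 4 and 6 the sum was 78.7 and 20.4 TPM, against 2.74 and 7.95 TPM in mice 2 and 3. In PTS1, PTS2 and PTS3 none of the 8 averaged 1 TPM and the sum was 0.245 to 4.48 TPM, while in CNT, where 2 of the 8 did, it was 63.2 to 80.6 TPM beside 0.055 to 0.29 TPM of Cdh11, and in CCD, where 3 did, 57.5 to 66.1 TPM beside 0.13 to 0.385 TPM. The part of stromal cells in the Cdh11 levels was not tested.

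Cdh16, Ksp-cadherin, was the most abundant of the 8 genes in every tubule segment by group mean. It ran from 27.0 ± 3.51 TPM (SD, n = 3) in the glomerulus to 6897 ± 564 TPM (SD, n = 4) in OMCD, 255-fold higher. The glomerular level differed between pieces of 1 mouse, with 48.6 and 3.70 TPM in mouse 1. PTS1 mice had 1222, 938 and 1239 TPM and overlapped with PTS2 mice at 994, 1082, 1282, 809 and 932 TPM. PTS3 mice, at 297, 212 and 288 TPM, lay below both.

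DTL1 resembled PTS1 with 1234, 1159 and 876 TPM of Cdh16, while DTL2 mice had 2752, 2793 and 2571 TPM and DTL3 mice had 3220.2, 2983 and 2976 TPM. CNT mice had 4611, 4192 and 4411 TPM, CCD mice 4796, 4784, 5074, 6167 and 5085 TPM, and OMCD mice 6251, 7558, 6666 and 7115 TPM. Each of these 3 groups lay apart from the one before, in rising order. IMCD mice, at 2006, 2251 and 2378 TPM, overlapped with DCT mice (2202 to 2352 TPM).

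Of the summed TPM of the 7 cadherins, Cdh16 made up 84.0% to 98.8% as a group mean in each of the 14 tubule segments and 46.1% ± 0.869 (SD, n = 3) in the glomerulus. In single glomerular pieces it was 65.4% and 9.76% in mouse 1 and 44.8% to 47.8% in the others, so the SD over mice understates the spread. Its share was largest in PTS1, at 98.8% ± 0.0260 (SD, n = 3), where Cdh2 made up 0.825% and Cdh1 0.172%. DCT had the smallest mean tubular share, 84.0% ± 1.07 (SD, n = 3), with 15.5% from Cdh1. IMCD had 84.9% ± 6.01 (SD, n = 3), and 2 of its 3 mice, down to 80.9%, lay below every DCT mouse. In the glomerulus Cdh11 made up 19.8% ± 4.07 (SD, n = 3), Cdh6 11.4% and Cdh4 10.9%.

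**Figure D3:**
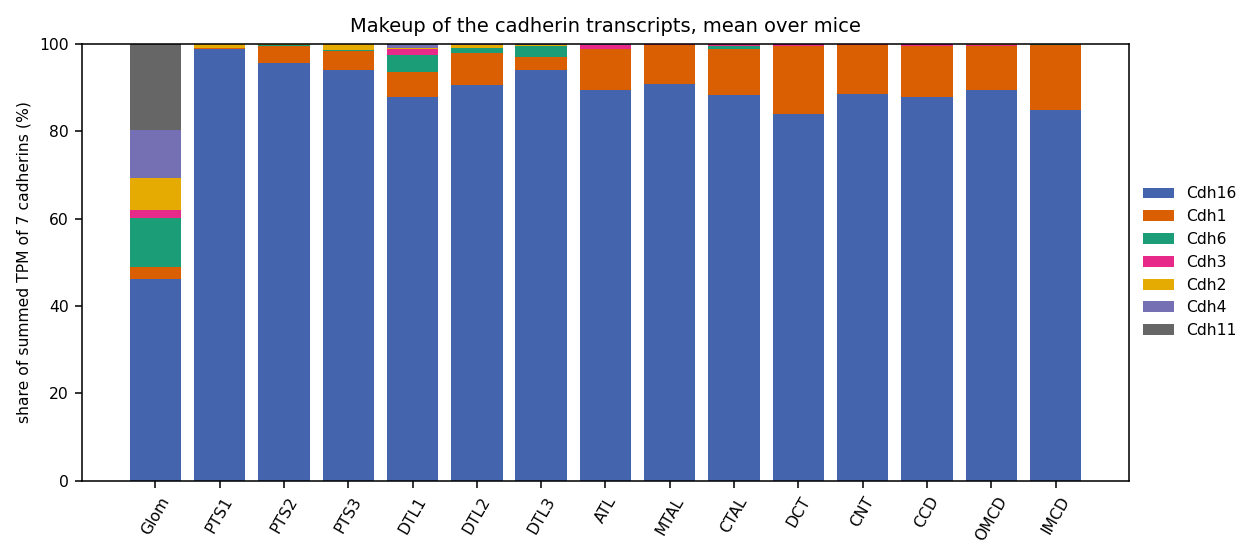
Share of each cadherin in the summed TPM of the 7 cadherins, as the mean over mice of each group in percent; bars stack to 100%. Cdh16 fills 84.0% or more of every tubule bar and 46.1% of the glomerulus bar.

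Epcam was near 0 in the first proximal segment and abundant from the thin limbs on. PTS1 mice had 0.34, 0.31 and 0.36 TPM. PTS2 mice had 31.9, 34.3, 39.0, 28.3 and 42.1 TPM and PTS3 mice 30.2, 25.0 and 37.0 TPM, which overlapped. In DTL1 the mice had 996, 1053 and 738 TPM, in DTL2 845, 836 and 882 TPM, and in DTL3 1293, 1304 and 1364 TPM, the highest of all groups and apart from the next.

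ATL mice had 1070.0, 1095 and, in mice 4 and 6, 609 and 740 TPM of Epcam, and MTAL mice had 855, 720 and 752 TPM. DCT was the low point of the distal tubule, at 301, 263 and 285 TPM, below every CTAL mouse (434 to 522 TPM) and every CNT mouse (442 to 497 TPM). From there the means rose to 599 ± 48.1 TPM in CCD (SD, n = 5) and 928 ± 59.9 TPM in OMCD (SD, n = 4). In IMCD the level was 846 ± 81.9 TPM (SD, n = 3), and OMCD and IMCD overlapped.

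Epcam and Cdh1 did not keep 1 ratio. The mean ratio of Epcam to Cdh1 TPM was 0.174 ± 0.0304 in PTS1 (SD, n = 3), 13.4 ± 0.853 in DTL1 and 13.8 ± 1.47 in DTL3 (SD, n = 3 each). It was 3.89 ± 0.182 in DTL2 (SD, n = 3), where Cdh1 was higher and Epcam was not. In DCT it was 0.670 ± 0.0168 (SD, n = 3), and Cdh1 exceeded Epcam in every mouse of PTS1, DCT and CNT and in 4 of 5 mice of both PTS2 and CCD.

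Epcam and Cdh6, both low in PTS1 and high in the descending limbs, were the only members found in the RefSeq promoter table. Their promoters are shown for that reason and were not chosen by level. Each is the window from 250 bases before to 50 bases after the annotated start in GRCm38.p6, written 5′ to 3′ on the gene's strand. Capitals mark CACCTG, the E-box bound by Snail and Zeb factors, and ACCGGT, the core of the grainyhead-like motif, on either strand. Epcam lies at chr17:87635729-87636028 on the plus strand and Cdh6 at chr15:13173626-13173925 on the minus strand.
Epcam: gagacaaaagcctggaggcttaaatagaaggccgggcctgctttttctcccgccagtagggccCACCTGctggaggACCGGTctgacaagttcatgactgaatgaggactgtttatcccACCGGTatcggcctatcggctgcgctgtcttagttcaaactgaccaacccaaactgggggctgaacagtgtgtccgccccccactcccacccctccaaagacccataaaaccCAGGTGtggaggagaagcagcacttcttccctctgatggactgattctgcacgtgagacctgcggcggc
Cdh6: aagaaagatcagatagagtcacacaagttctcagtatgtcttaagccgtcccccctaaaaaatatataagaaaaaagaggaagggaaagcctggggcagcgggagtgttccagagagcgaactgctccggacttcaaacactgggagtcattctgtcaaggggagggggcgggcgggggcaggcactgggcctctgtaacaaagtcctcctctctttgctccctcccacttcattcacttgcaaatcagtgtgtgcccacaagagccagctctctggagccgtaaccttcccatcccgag
The Epcam window holds the E-box at -187 and, as CAGGTG, at -19, counted from the start, and ACCGGT at -174 and -131, and these matches do not overlap. The Cdh6 window holds neither motif. Of 32851 promoters of that length 20.2% held at least 1 such E-box and 2.88% at least 2, while 2.33% held ACCGGT and 0.0548%, 18 promoters, held it at least 2 times. The motifs were chosen after the sequences and levels had been seen, and a match is a run of letters, not a measured site.

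Differences between regions were tested with limma on log2(TPM + 1) across all 33793 genes that passed the filter, with Benjamini-Hochberg adjustment over genes. A gene was called where the adjusted p was below 0.05 and the log2 difference at least 1 in size. The moderated F-test among the 15 groups called all 8 members, with adjusted p from 1.87e-42 for Epcam to 2.74e-09 for Cdh11, but it called 93.9% of all genes tested. Log2 differences below are given with the standard error of the fit.

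Distal segments, MTAL to IMCD, were compared with the 3 proximal segments. Of the 8 members 5 were called, where 19.7% of all genes were: 4 members were higher, against 15.3% of all genes, and 1 was lower, against 4.46%. Epcam was higher by 5.68 ± 0.08 (limma adjusted p = 1.68e-42), Cdh1 by 5.17 ± 0.11 (limma adjusted p = 9.28e-37), Cdh3 by 3.34 ± 0.09 and Cdh16 by 2.28 ± 0.09. Cdh2 was lower, at -1.75 ± 0.11 (limma adjusted p = 3.84e-18), but with a pseudocount of 5 in place of 1 the size was below the call line, at -0.66. Cdh6, at 0.80 ± 0.16, and Cdh4, at 0.49 ± 0.17, had adjusted p of 4.71e-05 and 0.0154 in limma but missed the size, and Cdh11 was at 0.29 ± 0.19. With a pseudocount of 0.1 Cdh6, at 1.20, and Cdh4, at 1.06, were called. The median over the members was 1.54 and over all genes 0.10. Of the genes called, 77.4% were higher in the distal segments, against 52.4% after median ratio rescaling of the mice and 51.9% after quantile normalization, and the direction of the 5 member calls was the same under each.

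The 4 thin limb groups were compared with the proximal segments in the same way. All members except Cdh2 were called, 7 of 8 and all higher, where 45.2% of all genes were called, 41.2% higher and 3.96% lower, and the median of all genes was itself at 0.84. Epcam was higher by 6.42 ± 0.09, Cdh6 by 3.99 ± 0.19 (limma adjusted p = 2.09e-23) and Cdh1 by 3.52 ± 0.12. Cdh3 was higher by 2.20 ± 0.10, Cdh4 by 2.09 ± 0.19, Cdh16 by 1.66 ± 0.10 and Cdh11 by 1.17 ± 0.21, and Cdh2 was at -0.44 ± 0.13. The member median was 2.15. Of all calls 91.2% were higher in the thin limbs, against 74.9% after median ratio rescaling and 49.1% after quantile normalization, which put the median of all genes at 0.53 and 0.14. Under quantile normalization Cdh11 was at 0.01 and Cdh4 at 0.65, neither called, and under median ratio rescaling Cdh16 was at 0.70 and Cdh11 at 0.92. Cdh11 was also not called without DTL1 and the glomerulus, at 0.99, with ATL mice 2 and 3 alone, at 0.86, or with a pseudocount of 5, at 0.41. Cdh2 was called lower under both rescalings, at -1.18 and -1.86.

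Collecting duct groups were compared with the 2 thick limb groups, and 4 members were called where 11.6% of all genes were: 3 were higher, against 8.11% of all genes, and 1 was lower, against 3.52%. Cdh2 was higher in the collecting duct by 1.46 ± 0.14 (limma adjusted p = 9.61e-12), Cdh1 by 1.26 ± 0.14 and Cdh4 by 1.20 ± 0.21, while Cdh6 was lower, at -1.30 ± 0.21 (limma adjusted p = 1.24e-06). Of these groups OMCD alone carried Cdh2 above 1 TPM and CTAL alone carried Cdh6 above 5 TPM, and no other of the 5 groups did. Cdh16 was at 0.95 ± 0.12 and Epcam at 0.36 ± 0.11, below the size required. Cdh16 passed it after quantile normalization, at 1.62, and without MTAL mouse 2, at 1.004. Cdh3 was at -0.11 ± 0.11 and took the other sign, 0.21, with a pseudocount of 5. With that pseudocount Cdh1 was the only member called, after median ratio rescaling Cdh1 was at 0.93, and after quantile normalization Cdh4 was at 0.66. The share of higher calls over all genes was 69.7%, 51.8% after median ratio rescaling and 43.9% after quantile normalization.

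The glomerulus was compared with the mean of the 14 tubule segments, and 6 members were called where 35.6% of all genes were: 2 were higher, against 31.6% of all genes, and 4 were lower, against 3.94%. Epcam, at -6.94 ± 0.13, Cdh16, at -6.48 ± 0.15, Cdh1, at -5.84 ± 0.17, and Cdh3, at -1.38 ± 0.14, were lower in the glomerulus. Cdh11 was higher by 2.96 ± 0.31 (limma adjusted p = 2.32e-11) and Cdh4 by 1.297 ± 0.27 (limma adjusted p = 5.93e-05). Cdh2, at 0.98 ± 0.18, and Cdh6, at 0.62 ± 0.26, were not called, and both took the other sign after quantile normalization, at -0.27 and -0.53, where Cdh4 was at 0.15. Cdh2 was called with a pseudocount of 0.1, at 2.22. It just passed the size with ATL mice 2 and 3 alone, without glomerulus mouse 2 or without DTL1 mouse 1, at 1.003 to 1.01. With the mouse number as a block it was called too, at 1.03. Cdh6 was called with a pseudocount of 0.1, at 1.25. With a pseudocount of 5 Cdh3, at -0.90, and Cdh4, at 0.60, missed the size. The member median was -0.38 and that of all genes 0.69. Calls over all genes were 88.9% higher, 78.4% after median ratio rescaling and 49.3% after quantile normalization.

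**Figure D4:**
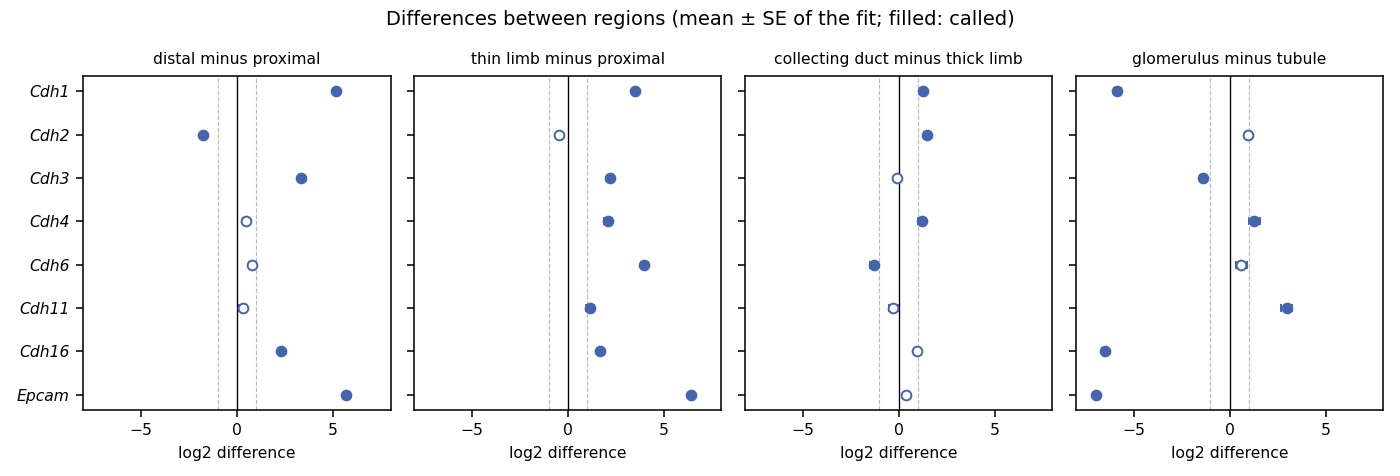
Log2 difference of each member in 4 comparisons of regions, with the standard error of the limma fit; filled points were called, open points were not, and dashed lines mark the size of 1 that a call needs. Epcam and Cdh1 lie far above 0 in the first pair of panels and far below it in the glomerulus panel; the open points of Cdh2 and Cdh6 in that panel and of Cdh3 in the collecting duct panel change sign under another scaling or pseudocount.

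Only Cdh11 was called as higher in 1 group than in every other, in the glomerulus over DTL1 by 1.73 ± 0.42 (limma intersection-union test, adjusted p = 0.000989), where 10.7% of all genes had such a group. Cdh6 was not called, in DTL3 over DTL1 by 0.75 ± 0.36 (limma adjusted p = 0.0834). Without the glomerulus and DTL1 Cdh11 was not called, and Cdh6 was, in DTL3 over DTL2 by 1.24 ± 0.37 (limma adjusted p = 0.00833). Epcam, in DTL3 over OMCD, and Cdh16, in OMCD over CCD, had adjusted p of 0.0199 and 0.0377 in limma with margins of 0.51 and 0.42. The highest groups of Cdh1, Cdh2, Cdh3 and Cdh4 were not separated from the next, with margins of 0.06 to 0.18.

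Segments were then compared in 14 pairs: 13 pairs that follow each other along the tubule, later minus earlier, and DTL2 minus DTL1, which are parallel limbs of long and short loops. Of the 112 combinations of member and pair 41 were called, where 17.5% of all combinations of gene and pair were, and 37 of the 41 were in the 13 pairs in succession. Cdh1 was called in 8 pairs, Cdh2 and Cdh6 in 7 each, Cdh3 in 6, Cdh16 in 5, Cdh4 and Epcam in 3 each and Cdh11 in 2. The 2 pairs that leave PTS3 held the most member calls, 7 each, and also the largest shares of all genes called, 65.5% and 40.0%.

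From PTS1 to PTS2 3 members were called, where 9.57% of all genes were: Epcam rose by 4.72 ± 0.16 (limma adjusted p = 9.72e-27), Cdh1 rose by 3.90 ± 0.21 (limma adjusted p = 8.97e-20) and Cdh2 was lower, at -1.71 ± 0.22 (limma adjusted p = 3.69e-08), a step that fell just under the size of 1, to -0.998, with a pseudocount of 5. Cdh16 was at -0.15 ± 0.18. The PTS2 pieces were read for transcripts of the segments where Epcam and Cdh1 are high: Umod, the thick limb secreted protein, was at 7.76 to 16.5 TPM in PTS2 against 34039 to 38232 TPM in CTAL, and Aqp2 was at 3.57 to 6.55 TPM against 19191 to 34804 TPM in OMCD. Cdh3, which CTAL and OMCD also carry, was at 0.01 to 0.05 TPM in PTS2. Aqp1, highest in DTL3 as Epcam was, at 11152 to 12081 TPM, was at 433 to 595 TPM in PTS2 and 7.94 to 30.8 TPM in PTS1, while Cdh6, at 68.6 to 97.9 TPM in DTL3, was at 0.39 to 1.36 TPM in PTS2. The part of material from other segments in these steps was not tested. From PTS2 to PTS3, where 4.70% of all genes were called, Cdh1 fell by 1.78 ± 0.21 and Cdh16 fell by 1.94 ± 0.18 on the log2 scale, with Epcam at -0.17 ± 0.16.

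At the entry to the thin limbs 65.5% of all genes were called between PTS3 and DTL1 and 40.0% between PTS3 and DTL2, with medians of all genes at 1.33 and 0.71. In both the differences for Cdh6 were 5.23 ± 0.36 and 4.74 ± 0.36, and for Epcam 4.88 ± 0.18 and 4.77 ± 0.18. Cdh3 was higher by 4.19 ± 0.19 into DTL1 and was at 0.34 ± 0.19 into DTL2, whereas Cdh2 was higher by 1.83 ± 0.25 into DTL2 and was at -0.89 ± 0.25 into DTL1. The Cdh2 step into DTL2 was 0.96 after median ratio rescaling and 0.45 after quantile normalization, and the Cdh2 value into DTL1 was called lower under both, at -1.69 and -2.84, with a pseudocount of 0.1, at -1.31, without PTS3 mouse 2, at -1.03, and without DTL1 mouse 1, the high one, at -1.34. Cdh1 and Cdh16 were higher in both pairs, by 2.45 ± 0.24 and 2.03 ± 0.20 into DTL1 and by 4.09 ± 0.24 and 3.36 ± 0.20 into DTL2, and Cdh4 by 2.94 ± 0.37 and 2.84 ± 0.37. Into DTL1 Cdh16 missed the size after median ratio rescaling, at 0.92, and Cdh4 was not called after quantile normalization, at 0.63. Cdh11 was called in both, at 1.81 ± 0.42 and 1.05 ± 0.42, and took the other sign in both after quantile normalization, at -0.05 and -0.15. Neither was called with a pseudocount of 5, at 0.68 and 0.31, nor the second after median ratio rescaling, at 0.86. The second of these calls was also lost when any 1 of PTS3 mouse 1 or 3 or DTL2 mouse 1 or 3 was left out, with adjusted p of 0.0575 to 0.108 in limma.

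The short and long descending limbs were compared directly. From DTL1 to DTL2 28.2% of all genes and 4 members were called. Cdh2 was higher in the long limb by 2.72 ± 0.25 (limma adjusted p = 8.87e-12), Cdh1 by 1.65 ± 0.24 and Cdh16 by 1.33 ± 0.20. Cdh3 was lower there, at -3.85 ± 0.19 (limma adjusted p = 2.04e-20). Cdh11, at -0.76 ± 0.42, was called without DTL1 mouse 5, at -1.38. Cdh4, at -0.10 ± 0.37, took the other sign after quantile normalization and was called, at 1.01. The median over all genes in this pair was -0.54, and after quantile normalization Cdh16 missed the size, at 0.67. From DTL2 to DTL3, with 9.58% of all genes called, Cdh2 was lower at -1.79 ± 0.25 and Cdh1 at -1.17 ± 0.24, and Cdh6 was higher by 1.24 ± 0.36 (limma adjusted p = 0.011). Without DTL3 mouse 2 the Cdh6 step was 1.12 with an adjusted p of 0.0518 in limma, and with a pseudocount of 0.1 it was 1.26 with an adjusted p of 0.194 in limma. Epcam, at 0.63 ± 0.18, was called after quantile normalization, at 1.15.

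At the turn from the descending to the ascending thin limb in the inner medulla, DTL3 to ATL, 14.6% of all genes and 5 members were called. Cdh6 was lower by far, at -4.77 ± 0.34 (limma adjusted p = 1.55e-15), and Cdh3 was higher by 4.17 ± 0.18 (limma adjusted p = 2.72e-23). Cdh2 and Cdh4 were lower, at -1.91 ± 0.23 and -1.65 ± 0.35, and Cdh1 was higher by 1.25 ± 0.22. With ATL mice 4 and 6 alone Cdh1, at 0.91, and Cdh4, at -0.76, were not called, and Cdh11, at 0.39 ± 0.39 with all mice, was, at 1.61. With a pseudocount of 5 Cdh2 and Cdh4 missed the size, at -0.73 and -0.87, and after quantile normalization Cdh2 was at -0.97. From ATL to MTAL, with 28.1% of all genes called, Cdh3 was the only member called, at -1.78 ± 0.18. Cdh4 was at -0.95 ± 0.35 and was called with ATL mice 4 and 6 alone, at -1.83, without ATL mouse 3, at -1.44, and without ATL mouse 2 or MTAL mouse 2, at -1.04 and -1.05, but took the other sign after quantile normalization. Cdh11 and Cdh6, at -0.87 ± 0.39 and -0.67 ± 0.34, were called with ATL mice 4 and 6 alone, at -2.08 and -1.80, and without ATL mouse 3, at -1.29 and -1.20, and Cdh11 also without ATL mouse 2 or MTAL mouse 2, at -1.26 and -1.18, but both took the other sign after quantile normalization.

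Along the thick limb and into the distal convoluted tubule Cdh6 made the largest steps. From MTAL to CTAL, with 3.15% of all genes called, Cdh6 was higher by 3.18 ± 0.32 (limma adjusted p = 4.85e-10) and Cdh3 by 1.53 ± 0.17 (limma adjusted p = 4.36e-09). From CTAL to DCT, with 4.35% called, Cdh6 alone was called, at -3.63 ± 0.32 (limma adjusted p = 2.65e-12). From DCT to CNT and from CNT to CCD limma called 0 members, against 5.22% and 1.12% of all genes, and 3 members in each pair had an unadjusted p below 0.05. In the first of these Cdh16 was at 0.94 ± 0.20 and Epcam at 0.72 ± 0.18, with adjusted p of 0.000587 and 0.00432 in limma but under the size of 1. After quantile normalization Cdh16 was called there, at 1.27.

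Within the collecting duct Cdh2 marked the outer medulla. From CCD to OMCD, with 12.1% of all genes called, Cdh2 was higher by 3.496 ± 0.21 (limma adjusted p = 8.98e-18) and Cdh6 was lower, at -1.05 ± 0.30. The Cdh6 step fell just under the size of 1 without CCD mouse 2 or OMCD mouse 2, at -0.997 and -0.94, and was -0.46 with a pseudocount of 5. Cdh4 was at 0.99 ± 0.31, just under the line. It was called with a pseudocount of 0.1, at 1.34, with pieces averaged before the logarithm, at 1.02, and with the mouse number as a block, at 1.03. The same held when any of CCD mice 2, 4 and 5 or OMCD mice 3 and 4 was left out, at 1.01 to 1.12. From OMCD to IMCD, with 18.6% called, Cdh3 was at -4.48 ± 0.18, Cdh2 at -3.64 ± 0.23, Cdh16 at -1.66 ± 0.19 and Cdh1 at -1.11 ± 0.22, all lower, while Epcam was at -0.14 ± 0.17. Without IMCD mouse 1, the mouse with the low Cdh1, the Cdh1 step was -0.57 (limma adjusted p = 0.0165) and was not called, and after median ratio rescaling it was -0.84. CCD, CNT and OMCD hold intercalated beside principal cells: 5 intercalated cell markers summed to 2419 to 5801 TPM in these groups and to 0.333 to 4.79 TPM in IMCD, and their part in the steps was not tested.

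**Figure D5:**
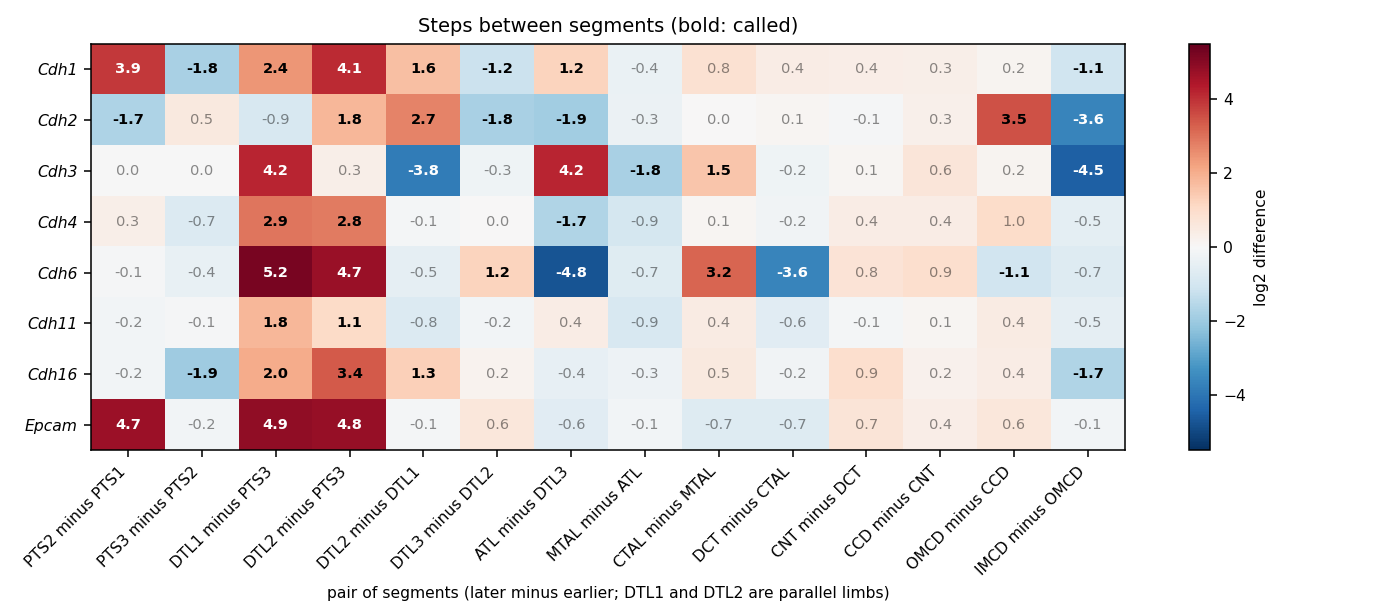
Log2 difference of each member between segments in succession, later minus earlier, and between the parallel limbs DTL2 and DTL1, in colour and as a number; bold numbers were called. Cdh1 and Epcam step up from PTS1 to PTS2, Cdh6 steps up into the descending limbs and again into CTAL, Cdh3 is up into DTL1 and ATL and down into MTAL, and Cdh2 is up in OMCD alone within the collecting duct. The steps of Cdh11 out of PTS3, of Cdh4, Cdh6 and Cdh11 from ATL to MTAL and of Cdh4 between DTL1 and DTL2 change sign after quantile normalization, as do some smaller steps that were not called after a rescaling.

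Thick limb and collecting duct both run through cortex and medulla, and the difference between their medulla-to-cortex changes was tested as (OMCD minus CCD) minus (MTAL minus CTAL), a comparison added after the levels had been seen. In all 8.12% of genes and 3 members were called. Cdh2 was called at 3.51 ± 0.30 (limma adjusted p = 6.63e-12), with levels above 10 TPM in OMCD and below 1 TPM in CCD, MTAL and CTAL. Cdh6, at 2.13 ± 0.44 (limma adjusted p = 0.000666), and Cdh3, at 1.69 ± 0.23 (limma adjusted p = 6.22e-07), were called too. Cdh6 was lower in the medullary than in the cortical part of both, by more in the thick limb, while Cdh3 was lower in the medullary thick limb and was at 0.16 ± 0.16 from CCD to OMCD. Cdh1 was at 0.998 ± 0.29, just under the line, and was called with a pseudocount of 0.1, after quantile normalization, with all samples and mouse as a random effect, and when any 1 of 9 mice was left out, at 1.001 to 1.09. With the mouse number as a block Cdh1 was called as well, at 1.01. Cdh16, at 0.95 ± 0.24, was called after quantile normalization, at 1.17, and without MTAL mouse 2 or CCD mouse 4, at 1.05 and 1.01, and Cdh4, at 1.09 ± 0.45, was called with the random effect, at 1.07.

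Lists of related genes were read beside the members, with medians of 0.10 and 0.84 over all genes in the distal and thin limb comparisons as their background. Over all genes 15.3% were called higher and 4.46% lower in the distal segments, and 41.2% higher and 3.96% lower in the thin limbs. Catenins and other adherens junction partners came first. Of 14 genes, 6 were higher in the distal than the proximal segments and 1 was lower, with a median of 0.87. Ctnna1, alpha-catenin, was higher by 2.53, Jup, plakoglobin, by 1.83, Vcl, vinculin, by 1.89, Ctnnd1, p120-catenin, by 1.41, and Nectin2, an immunoglobulin-like adhesion molecule, by 3.78. Ctnnb1, beta-catenin, had 0.83 and was not called, with mean levels between 158 TPM in PTS3 and 679 TPM in the glomerulus. In the thin limbs 10 of the 14 were higher than in the proximal segments, where 41.2% of all genes were, and 1, Nectin3, was lower, at -2.12, with a median of 1.61, and the count of 10 was 6 after quantile normalization.

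Genes whose products bind or regulate Epcam formed the next list. Of its 9 genes 7 were higher in the distal segments and 1 lower, with a median of 4.47. Cldn7, claudin-7, was higher by 6.78, the tetraspanins Tspan8 and Cd9 by 6.80 and 4.47, and the membrane protease St14 (matriptase) by 5.09. Its inhibitors Spint1 and Spint2 were higher by 1.72 and 1.49. Claudin-1, Cldn1, was lower at -3.16, and is named after its value was seen. In the thin limbs 8 of the 9 were higher and Cldn1 was lower, at -1.32, with a median of 3.26. Cldn7 had mean levels of 1.37 TPM in PTS1, 1.53 in PTS2 and 2.99 in PTS3 and of 132 to 504 TPM in the 11 segments after them, so that it stayed near the bottom in PTS2 and PTS3, where Epcam had means of 35.1 and 30.7 TPM.

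Desmosomal genes, which include the cadherin relatives Dsc2 and Dsg2, were tested for 10 of 11 members. In the distal segments 4 were higher and 1, Perp, was lower, at -1.27, with a median of 0.10. In the thin limbs 6 of the 10 were higher, beside 41.2% of all genes, and Perp was again lower, with a median of 1.06 beside 0.84 for all genes. The thin limb count of 6 became 2 after median ratio rescaling and 1 after quantile normalization. Perp had its highest mean in PTS2, at 220.1 TPM, and Pkp3, plakophilin-3, in ATL, at 61.7 TPM.

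Other cadherins were tested for 12 of 16 genes. In limma 0 of the 12 were called between distal and proximal segments, with 3 at an unadjusted p below 0.05, and 7 were higher in the thin limbs, beside 41.2% of all genes, a count that was 2 after quantile normalization and 12 with a pseudocount of 0.1. The medians were 0.11 and 1.23. Named after their values were seen, Cdh7, Cdh10, Cdh12, Cdh17 and Cdh23 had means of 1.145 to 4.42 TPM in the thin limb groups and of at most 0.373 TPM in the proximal ones, but in ATL the SD over the 4 mice was larger than the mean for each of the 5. Cdh5, the cadherin of endothelium, was also among the 7, and 6 endothelial markers that include it summed to 355 to 1414 TPM in DTL1, DTL2 and DTL3 and to 22.3 to 70.5 TPM in the proximal groups. The part of endothelium, and of the libraries with many receptor genes, in this count was not tested. Cdh13, T-cadherin, which is held in the membrane by a lipid anchor, reached a mean of 310.2 TPM in DTL2, above Cdh1 there, against 12.5 TPM in DTL1 and 4.12 TPM in DTL3.

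Transcription factors known to act on cadherin or Epcam genes were tested for 11 of 12 members. Between distal and proximal segments 3 were higher, or 7 with a pseudocount of 0.1, and 1, Zeb2, was lower, at -1.51. Grhl2, a grainyhead-like activator of epithelial genes, was higher by 3.98 in the distal segments and by 4.97 in the thin limbs, where 5 of the 11 were higher, and the list medians were 0.46 and 0.45. Its mean was 0.658 TPM in PTS1, 0.111 in PTS2 and 0.00667 in PTS3, and 9.82 to 63.8 TPM in the later segments, with its highest mean in DTL3, as for Epcam. Epcam and Grhl2 thus differed in order in PTS2 and PTS3, where Epcam was above PTS1 and Grhl2 was not. Zeb1 and Zeb2, repressors of Cdh1, had their highest means in the glomerulus, at 104 and 101 TPM. Zeb1 and, named after its value was seen, Snai2 were also called higher in the thin limbs than in the proximal segments, by 2.98 and 1.66. Stromal and endothelial marker sums were higher in DTL1, DTL2 and DTL3 as well, at 11.8 to 102 TPM and 355 to 1414 TPM against 0.245 to 4.48 TPM and 22.3 to 70.5 TPM in the proximal groups, and their part was not tested.

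Among the members, the Pearson correlation over the 15 group means of log2(TPM + 1) was 0.89 for Cdh1 and Epcam, 0.83 for Cdh1 and Cdh16, 0.74 for Cdh4 and Cdh6 and -0.43 for Cdh1 and Cdh2. These are descriptions, since the groups share library preparation and the same total. Of 12068 genes with a mean of at least 10 TPM in some group, the most alike to Epcam were Sim1, at 0.967, and St14, at 0.956. Those for Cdh1 were Tom1l1 and St14, both at 0.925, and those for Cdh16 were Dclk3, at 0.954, and Ripk4, at 0.934. Cdh6 was most like Bst1, at 0.888, and Wdfy2, at 0.886, and Cdh3 most like Plekhd1os, at 0.936, and Emb, at 0.906. Cdh11 followed Adam12 at 0.990 and Gpsm3 at 0.976, Cdh4 followed AA413626 and Ccdc93, both at 0.962, and Cdh2 had no gene above 0.855, the value for Selenot, with Iqcg at 0.832.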

How the data were processed

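Per the labels' protocols, SMARTer V4 ultra-low input cDNA and Nextera XT libraries were made from Direct-zol RNA. The submitters' processing notes name STAR 2.5.4a and RSEM 1.3.0 without their roles, and the genome build is not given in the sources used here. The authors deposited TPM per gene and sample. TPM keep no read depth, so depth is unknown and no counting interval is given. Of 93 sample columns 92 matched a sample title. The name of the other, 1 PTS2 column, gave the mouse number and segment of the 1 title left over but another piece letter. It was used as a mouse without a number. A further 3 single-cell samples were not analysed here.

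Pieces were averaged per mouse as log2(TPM + 1) for tests, which understates changes of low genes, and as TPM for printed levels. limma 3.58.1 (R 4.3.3; lmFit, eBayes with trend) was fitted to 33793 genes in 53 combinations of mouse number and segment with 1 shared spread. Benjamini-Hochberg adjusted p and log2 thresholds were 0.05 and 1. For the highest group the largest one-sided p over the other groups was taken. On simulated data with 200 genes changed by 2 log2 units, the distal minus proximal test recovered 99.5% and called 1 other. The simulation used independent normal noise and kept all other genes level over the groups, unlike the data. It checks the procedure and not the error rate of the calls reported here. The members were given, and the gene lists, naming rule (list genes with a mean of at least 50 TPM in some group) and tests were chosen with earlier results of these data known. The rule's genes include 2 that are not reported here. Promoters came from RefSeq, GRCm38.p6. Alternatives were pseudocounts of 0.1 and 5, other filters, rescalings, ways of averaging and left-out mice. Tables were handled in pandas 2.3.3 under Python 3.11.15.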

Additional observations from a re-analysis of the deposited data

Results flagged for a closer look

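Within the groups of 4 or 5 mice, single mice stood far from the others in 4 of 40 sets of values, where chance flags about 1 in 20. Cdh16 in CCD was 6167 TPM in mouse 4, against 4784 to 5085 TPM in the other mice. Cdh11 in CTAL was 2.04 TPM in mouse 1, against 0.54 to 0.835 TPM. Cdh2 in CTAL was 0.06 TPM in mouse 5 and Cdh3 in PTS2 was 0.05 TPM in mouse 3, both near the smallest value the table can hold.

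The medulla-to-cortex difference of Cdh2, Cdh3 and Cdh6 was not the same in collecting duct and thick limb by a test of the difference itself, with log2 values of 3.51, 1.69 and 2.13. That comparison was added after the levels had been seen.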

How the results depend on the processing

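The number of members called was 8 in the F-test under every alternative run and 1 in the test for a highest group, which was Cdh11 except without the glomerulus and DTL1, where it was Cdh6. Of the other regional counts and the sum over pairs, only collecting duct minus thick limb moved by over 1.5 times, with 1 member called in place of 4 at a pseudocount of 5. The medulla-to-cortex count of 3 became 5 after quantile normalization, with mouse as a random effect and without MTAL mouse 2 or CCD mouse 4. Among single pairs, DTL3 to ATL went from 5 to 3 at a pseudocount of 5, CCD to OMCD from 2 to 1 at a pseudocount of 5 or without OMCD mouse 2, and DCT to CNT from 0 to 1 after quantile normalization. ATL to MTAL went from 1 to 4 with ATL mice 4 and 6 alone or without ATL mouse 3, to 3 without ATL mouse 2 or MTAL mouse 2, and to 2 at a pseudocount of 0.1, with Cdh2 at -1.42, or after quantile normalization, with Cdh16 at -1.17. The pseudocount of 0.1 also called Cdh4 from PTS2 to PTS3 (-2.32), Cdh3 from PTS3 to DTL2 (1.56) and Cdh6 from OMCD to IMCD (-2.07), and quantile normalization called Cdh4 in DTL2 minus DTL1 (1.01, against -0.10). Leaving out single mice gave 5 to 5 members for distal minus proximal, 7 to 7 for thin limb minus proximal, 4 to 5 for collecting duct minus thick limb, 6 to 7 for glomerulus minus tubule and 40 to 44 of the 112 combinations of member and pair. The Cdh16 share in the glomerulus was 43.2% with pieces taken singly. Signs changed for Cdh3 in collecting duct minus thick limb (0.21, pseudocount 5). After quantile normalization they changed for Cdh2 (-0.27) and Cdh6 (-0.53) in glomerulus minus tubule. The same setting changed them for Cdh11 from PTS3 to DTL1 (-0.0532) and to DTL2 (-0.15) and for Cdh4 (0.0769), Cdh6 and Cdh11 from ATL to MTAL. It also changed them for Cdh4 in DTL2 minus DTL1 (1.01) and Epcam in the medulla-to-cortex comparison (0.21). Some smaller steps that were not called changed sign after a rescaling as well. The cause was not tested.

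Counts over the gene lists moved more. Of other cadherins, 7 were higher in the thin limbs, but 12 with a pseudocount of 0.1, 2 with 5, 4 with a filter of 5 TPM and 2 after quantile normalization, and between distal and proximal segments 0 became 2 with a pseudocount of 0.1. Of desmosomal genes 6 became 3 with a pseudocount of 5, 2 after median ratio rescaling and 1 after quantile normalization. Of catenins and partners 10 became 6 after quantile normalization. Of transcription factors 3 higher in the distal segments became 7 with a pseudocount of 0.1, and 5 higher in the thin limbs became 3 with a pseudocount of 5 or quantile normalization. Counts of lower genes, 0 or 1 in each list, ranged from 0 to 3.

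No pairing by mouse number was seen. Deviations from the group means correlated at a median of 0.000185 over 290 pairs with 1 number and 0.000366 over 1016 pairs with different numbers. With library noise of unknown size, this cannot show whether 1 number in different segments is 1 animal. With the mouse number as a block, 5, 7, 4 and 7 members were called in the 4 regional comparisons, 42 combinations of member and pair, 8 in the F-test and 1 as highest. Under the block Cdh2 in glomerulus minus tubule and Cdh4 from CCD to OMCD were called, both at 1.03, as was Cdh1 in the medulla-to-cortex comparison, at 1.01. TPM carry no depth, so the precision of values under about 1 TPM is unknown. Median ratio rescaling used 8230 genes, with factors of 0.563 to 1.4.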
